A study of Mus musculus with 20 samples.

Results

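Integrins are adhesion receptors made of an alpha and a beta chain, and leukocytes use them to hold on to vessel walls, to matrix and to each other. RNA of 8 integrin chains (Itgam, Itgal, Itgb2, Itga4, Itgb1, Itgb7, Itgav and Itga6) and of the adhesion ligands Icam1 and Vcam1 was followed here in macrophages of the cranial dura mater. The 10 genes were chosen by symbol from the 33243 gene rows of the count table, and all 10 were present and passed the filter of a total of at least 10 counts over the libraries.

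The macrophages were CNS-associated macrophages of the dura (dCAMs), sorted through a CD45int CD11b+ CD206int-high gate from Ccr2creERT2/+ R26tdT/tdT mice. All mice had received the CSF1R inhibitor BLZ945 at 200 mg/kg for 7 days to deplete macrophages. Tamoxifen followed at 2 mg per day on the last BLZ945 day and at 2 later time points, so that cells expressing Ccr2 at that time, and their progeny, carry the red fluorescent protein tdTomato (tdT). Cells whose precursors lacked Ccr2 at that time and cells in which recombination failed are both tdT-. So are cells that arose from unlabelled precursors in the weeks after tamoxifen, whether or not these expressed Ccr2. The paper reports that HSC-derived cells steadily replace dCAMs in control mice, so tdT- does not mark cells as not derived from monocytes. At 8 weeks after depletion, mice were injected with bacterial lipopolysaccharide (LPS) at 2.5 mg/kg or, as controls (CTL), with PBS, and dura was collected after 12 h. Each of 10 mice gave a tdT+ and a tdT- library, which makes 4 groups of 5 libraries. The CTL mice are 174, 175, 177, 178 and 179, and the LPS mice are 54, 56, 59, 60 and 61. The titles of 3 CTL and 2 LPS mice begin with F and those of the others with M. The mouse numbers of the treatments come from separate ranges and no source used here says whether both were processed together, so that treatment and processing cannot be told apart. Age was not given in the labels.

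The counts are raw reads per gene from a low-input PCR protocol without molecular identifiers, and levels are given as CPM (reads per 1000000 assigned reads, after TMM scaling). CTL libraries held 6017650 to 12208203 counts and LPS libraries 12073566 to 18925908, so that levels of CTL libraries rest on fewer reads. The tdT- CTL libraries stood apart in the number of genes with at least 10 counts, which was 6671 to 9365 against 10024 to 11032 in tdT+ CTL libraries of similar totals and 10930 to 11987 in LPS libraries. Each comparison with tdT- CTL libraries rests on that group, and the part of its lower number of genes in the results was not tested. Differences were tested with edgeR's quasi-likelihood test over the 16632 genes that passed the filter, with Benjamini-Hochberg adjustment, and a gene was called at an adjusted p under 0.05. The sum of 13 markers of resident border macrophages, among them Mrc1, which encodes CD206, was lower after LPS without overlap in each population. It was 15367 to 29103 CPM in tdT- CTL and 11086 to 14909.7 CPM in tdT- LPS libraries. The tdT+ sums were 31194 to 36242 CPM in CTL and 13356 to 19659 CPM in LPS libraries. Single markers of this sum, Mrc1 included, are not given here. The member changes after LPS stand beside this shift, and its part in them was not tested. Markers of T and NK cells reached at most 134 CPM, those of B cells at most 114 CPM and those of endothelial cells at most 82.8 CPM. The endothelial cadherin Cdh5 stayed at or under 1.89 CPM. In bulk RNA, fewer cells of a type and less RNA per cell cannot be told apart.

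The pair of alpha and beta chain sets the ligand. Itgam (CD11b) and Itgal (CD11a) both pair with Itgb2 (CD18), forming Mac-1 and LFA-1, which bind ICAM-1 on vessel walls and other cells. Itga4 pairs with Itgb1, forming VLA-4, the main receptor of VCAM-1, or with Itgb7, forming the receptor of the gut addressin MAdCAM-1. Itgav and Itga6 belong to receptors of matrix, the first for proteins with an RGD motif and the second for laminins.

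Positions refer to GRCm38, as annotated in GENCODE M21, and span all exons and introns of each protein-coding gene. Itgam lies at chr7:128062640-128118491 and Itgal on the same chromosome at chr7:127296260-127335138. Itga4, Itgav and Itga6 are all on chromosome 2, at chr2:79255426-79333123, chr2:83724397-83806916 and chr2:71745616-71858416. The beta chains Itgb2, Itgb1 and Itgb7 lie at chr10:77530252-77565708, chr8:128685654-128733200 and chr15:102215995-102231944. Icam1 lies at chr9:21015985-21028817 and Vcam1 at chr3:116109949-116129688.

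Promoters of 4 members are shown because the RNA of Itgam and Icam1 moved in opposite directions, and that of Itga4 and Itgb7 was lower in the tdT+ than in the tdT- library of each LPS mouse. Each is the 250 bases before the RefSeq start of the gene in GRCm38.p6, written 5′ to 3′ on the strand of the gene. Capitals mark matches, on either strand, to 6 short patterns.
Itgam (chr7:128062390-128062639, plus strand): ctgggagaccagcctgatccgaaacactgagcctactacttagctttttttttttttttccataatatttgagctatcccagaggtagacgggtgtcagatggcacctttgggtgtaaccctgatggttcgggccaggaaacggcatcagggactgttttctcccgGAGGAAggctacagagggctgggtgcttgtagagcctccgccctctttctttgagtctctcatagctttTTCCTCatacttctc
Icam1 (chr9:21015690-21015939, plus strand): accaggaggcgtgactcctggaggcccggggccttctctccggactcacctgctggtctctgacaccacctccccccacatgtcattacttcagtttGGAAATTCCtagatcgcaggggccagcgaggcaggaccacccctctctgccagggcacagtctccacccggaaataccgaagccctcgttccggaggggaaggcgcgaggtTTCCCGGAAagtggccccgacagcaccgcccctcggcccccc
Itga4 (chr2:79255176-79255425, plus strand): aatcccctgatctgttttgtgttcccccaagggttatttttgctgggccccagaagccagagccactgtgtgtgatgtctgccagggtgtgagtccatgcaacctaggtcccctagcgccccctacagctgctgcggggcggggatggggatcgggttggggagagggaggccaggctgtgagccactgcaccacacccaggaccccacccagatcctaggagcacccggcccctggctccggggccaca
Itgb7 (chr15:102231936-102232185, minus strand): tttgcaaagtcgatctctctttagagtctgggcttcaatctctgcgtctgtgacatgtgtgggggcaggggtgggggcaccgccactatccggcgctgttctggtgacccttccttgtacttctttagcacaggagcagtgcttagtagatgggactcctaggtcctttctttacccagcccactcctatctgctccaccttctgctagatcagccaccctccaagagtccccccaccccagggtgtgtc
The capitals in Itgam are both GAGGAA, a core bound by ETS factors such as PU.1, on the plus strand 84 bases before the start and on the minus strand 15 bases before it. This pattern is found in 23.3% of 32851 promoters of that length. The capitals in Icam1 are GGAAATTCC, a form of the NF-kappaB site, and TTCNNNGAA, the form bound by STAT factors. GGAAATTCC occurs in 0.286% and TTCNNNGAA in 7.02% of promoters. None of the patterns was in the windows of Itga4 and Itgb7. The kappaB consensus (7.25% of promoters), TATAAA (12.4%) and TGANTCA (6.75%) matched in none of the 6 members with an entry, which were these 4, Itgb1 and Itgav. The patterns shown in capitals do not overlap one another. A match describes letters in a window and not the binding of a factor.

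Itgam rose after LPS in both populations. In tdT- dCAMs its level was 220.3 CPM in mouse 174, 162 in 175, 127 in 177, 88.3 in 178 and 142 in 179, against 1022 in mouse 54, 993 in 56, 872 in 59, 1027 in 60 and 797 in 61 after LPS. In tdT+ dCAMs it was 172, 159, 206, 178 and 234 CPM in the CTL mice and 1187, 1039, 994, 1113 and 975 CPM in the LPS mice, in the same order of mice. The lowest LPS library was thus above the highest CTL library in each population. The log2 fold change was 2.67 ± 0.20 (SE) in tdT- dCAMs, a 6.36-fold rise (adjusted p = 1.41e-08, edgeR), and 2.48 ± 0.20 in tdT+ dCAMs, a 5.59-fold rise (adjusted p = 2.74e-08). The difference between these effects was -0.19 ± 0.27 on the log2 scale and was not called (adjusted p = 0.979). Itgam encodes the CD11b of the sorting gate, which selects cells by protein and is the same in all groups. Whether LPS changed which cells passed that gate was not tested. The gene overlaps the gene model Gm49368 on the same strand, and the strand setting of the counting was not given in the sources used here.

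**Figure D1:**
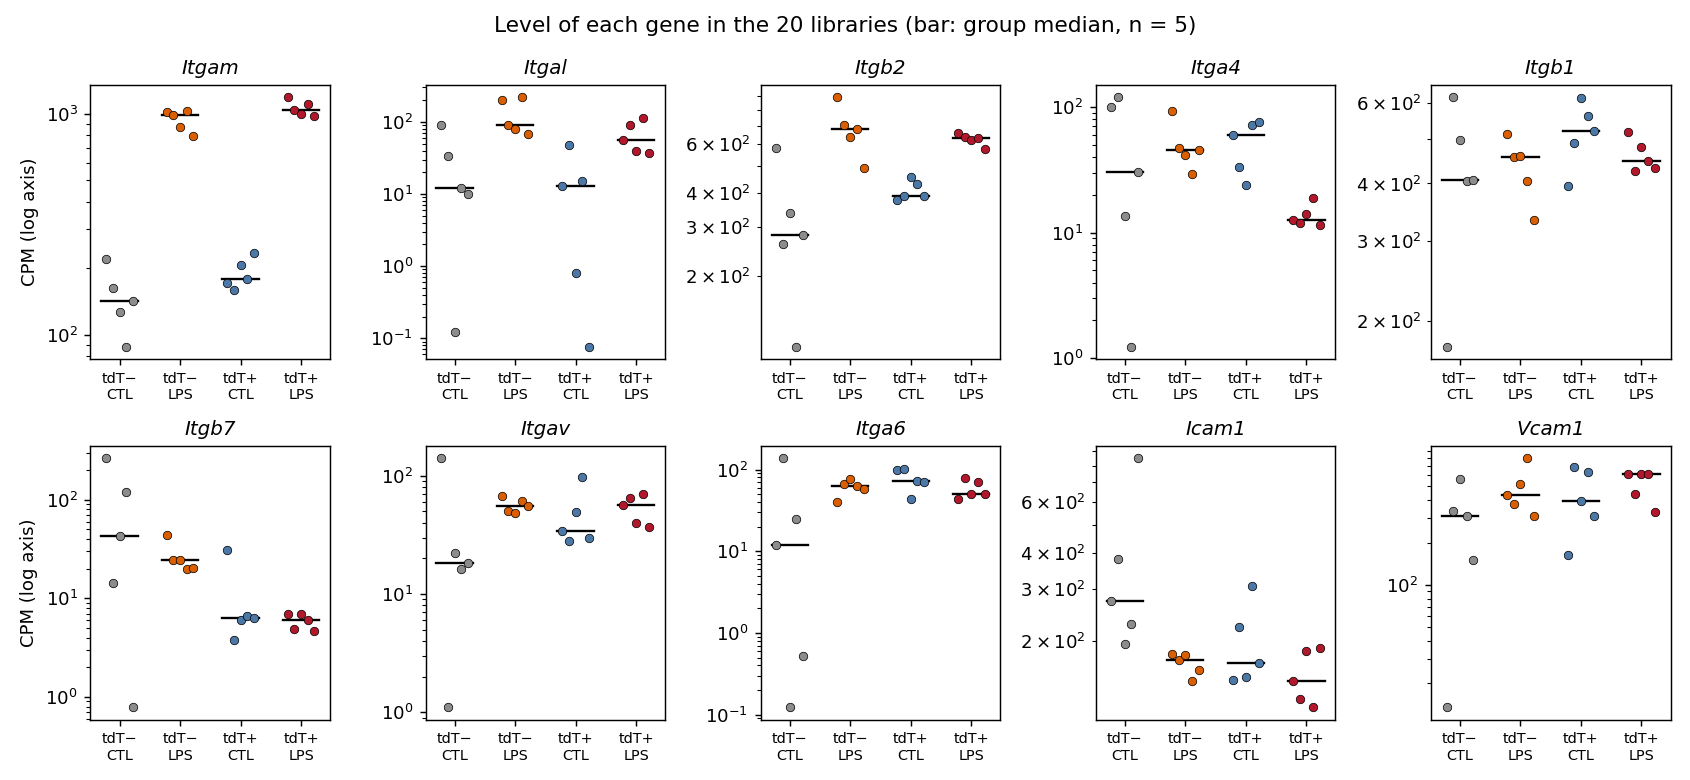
Level of each of the 10 genes in the 20 libraries, as CPM on a log axis, by population and treatment; points are libraries and bars are group medians (n = 5). The LPS libraries of Itgam sit at 797 to 1187 CPM and the CTL libraries at 88.3 to 234 CPM, while several genes scatter widely among the tdT- CTL libraries.

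Itgb2, the partner of Itgam, was higher after LPS by a smaller factor. Levels in tdT- dCAMs were 583 CPM in mouse 174, 261 in 175, 338 in 177, 111 in 178 and 281 in 179, against 886, 705, 639, 680.1 and 490.3 CPM in LPS mice 54, 56, 59, 60 and 61. The groups overlap through mouse 174, whose CTL level lies above that of LPS mouse 61. Itgb2 rose 2.16-fold in tdT- dCAMs, with a log2 fold change of 1.11 ± 0.27 (adjusted p = 0.00941), and the call was kept with each mouse left out. In tdT+ dCAMs the 5 CTL libraries lay between 376 and 455 CPM and the 5 LPS libraries between 575 and 661 CPM, without overlap. The log2 fold change there was 0.61 ± 0.27 and was not called (adjusted p = 0.214). In a fit of the 10 tdT+ libraries alone, which uses only their own spread, it was 0.61 with an adjusted p of 0.00138, and in the same kind of fit the tdT- value of 1.11 lost its call (adjusted p = 0.101). Of all genes, the fit of tdT+ libraries called 11% up and 9.49% down, and that of tdT- libraries 4.19% up and 1.89% down. The tdT- CTL libraries varied more (SD 172 CPM) than the tdT+ CTL libraries (SD 33.1 CPM).

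Itgal, the alpha chain of LFA-1, varied widely among CTL libraries. In tdT- dCAMs the CTL libraries held 90.4, 33.9, 0.123, 12.0 and 9.94 CPM (mice 174, 175, 177, 178 and 179), and the LPS libraries 202, 90.5, 79.3, 218 and 67.6 CPM. In tdT+ dCAMs the CTL libraries held 12.8, 48.3, 0.807, 15.3 and 0.0767 CPM and the LPS libraries 55.3, 90.3, 40.0, 114 and 36.8 CPM. Mouse 177 in tdT- and mouse 179 in tdT+ dCAMs were at 1 count each, under the floor of 3 counts. The groups overlapped in both populations, and the log2 fold changes of 2.17 ± 1.11 and 2.12 ± 1.11 were not called (adjusted p = 0.193 and 0.309). By limma-voom without quality weights the tdT- value was 3.65 and was called, both with mouse as a replicate block (adjusted p = 0.0332) and without it (0.0347). In tdT+ dCAMs this tool gave 3.93 with the block (adjusted p = 0.0728). Of all genes it called 22.7% up and 6.35% down in the tdT- population and 6.61% up and 4.03% down in the other, shares that were equal with and without the block. With quality weights the tdT+ value was 3.81 and was called (adjusted p = 0.0288), where 13.3% of all genes were called up and 9.9% down. The tdT- value with these weights was 3.97 and was not called (adjusted p = 0.227). Within the LPS mice, Itgal was lower in the tdT+ than in the tdT- library in 5 of 5 mice, with a log2 difference of -0.97 ± 1.07 that was not called (adjusted p = 1.0).

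Markers of the leukocytes that also carry beta-2 integrins moved in part with the treatment. The 10 neutrophil markers summed to 164 to 469 CPM in tdT- CTL and 467 to 1139 CPM in tdT- LPS libraries, and to 510.3 to 688 CPM in tdT+ CTL and 512 to 1173 CPM in tdT+ LPS libraries. Within that list S100a8 reached 625 CPM after LPS and at most 29.1 CPM in CTL libraries, while Ly6g, which defines neutrophils, was at most 1.54 CPM in any library. The 8 monocyte markers summed to 577 to 1103 CPM in tdT- CTL and 331 to 844 CPM in tdT- LPS libraries, and to 161 to 469 CPM in tdT+ CTL and 184 to 330.3 CPM in tdT+ LPS libraries. The part of these cells in the levels of Itgam, Itgal and Itgb2 was not tested.

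Icam1, the ligand of both beta-2 integrins, fell in tdT- dCAMs. Its level was 274 CPM in mouse 174, 383 in 175, 195 in 177, 228 in 178 and 848 in 179, against 180.0, 172, 179, 145 and 158 CPM in LPS mice 54, 56, 59, 60 and 61. Every LPS library lay under every CTL library. The log2 fold change was -1.21 ± 0.33, a level 2.31-fold lower (adjusted p = 0.0192). Without mouse 179 the value was -0.70 and was no longer called (adjusted p = 0.0744), and without mouse 54, 56, 60 or 61 the adjusted p ranged from 0.0506 to 0.0643. It was not called by limma-voom with quality weights (adjusted p = 0.0783) or in the 10 tdT- libraries alone (0.0959). Library 179 also had the highest sum of the 7 fibroblast markers, 4682 CPM against at most 1126 CPM in the other tdT- CTL libraries, and the part of fibroblasts in its Icam1 level was not tested. In tdT+ dCAMs Icam1 was 147, 223, 150.0, 308 and 168 CPM in CTL mice and 145, 126, 184, 118 and 189 CPM in LPS mice. These groups overlapped, and the log2 fold change of -0.39 ± 0.33 was not called (adjusted p = 0.618). The difference between the populations' effects, 0.82 ± 0.47, was not called either (adjusted p = 0.502). Icam1 overlaps an antisense gene model, Gm47079.

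Of the 10 genes, 2 were called higher (Itgam and Itgb2) and 1 lower (Icam1) after LPS in tdT- dCAMs, where 7.67% of all genes tested were called higher and 4.85% lower. The levels of 1 member did not overlap in the upward direction (Itgam) and those of 1 in the downward direction (Icam1), against 9.32% and 3.31% of all genes. In tdT+ dCAMs 1 member was called higher (Itgam) and 0 lower, where 3.79% of genes were called higher and 2.83% lower. At an unadjusted p under 0.05, 2 members were higher (Itgam and Itgb2) and 1 lower (Itga4) there. The share of all genes at that unadjusted cut was not computed, here or below, so such counts cannot be set against it. DESeq2 called 1 member higher and 1 lower in tdT+ dCAMs, against 6.93% and 6.36% of all genes in its fit. Limma-voom with quality weights called 3 higher (Itgam, Itgal and Itgb2) and 1 lower (Itga4), against 13.3% and 9.9% of all genes. Levels did not overlap for 2 members upward (Itgam and Itgb2) and 1 downward (Itga4), against 10.6% and 7.19% of genes. The median log2 fold change of the members was 0.65 in tdT- and 0.01 in tdT+ dCAMs, beside 0.02 and 0.01 over all genes.

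**Figure D2:**
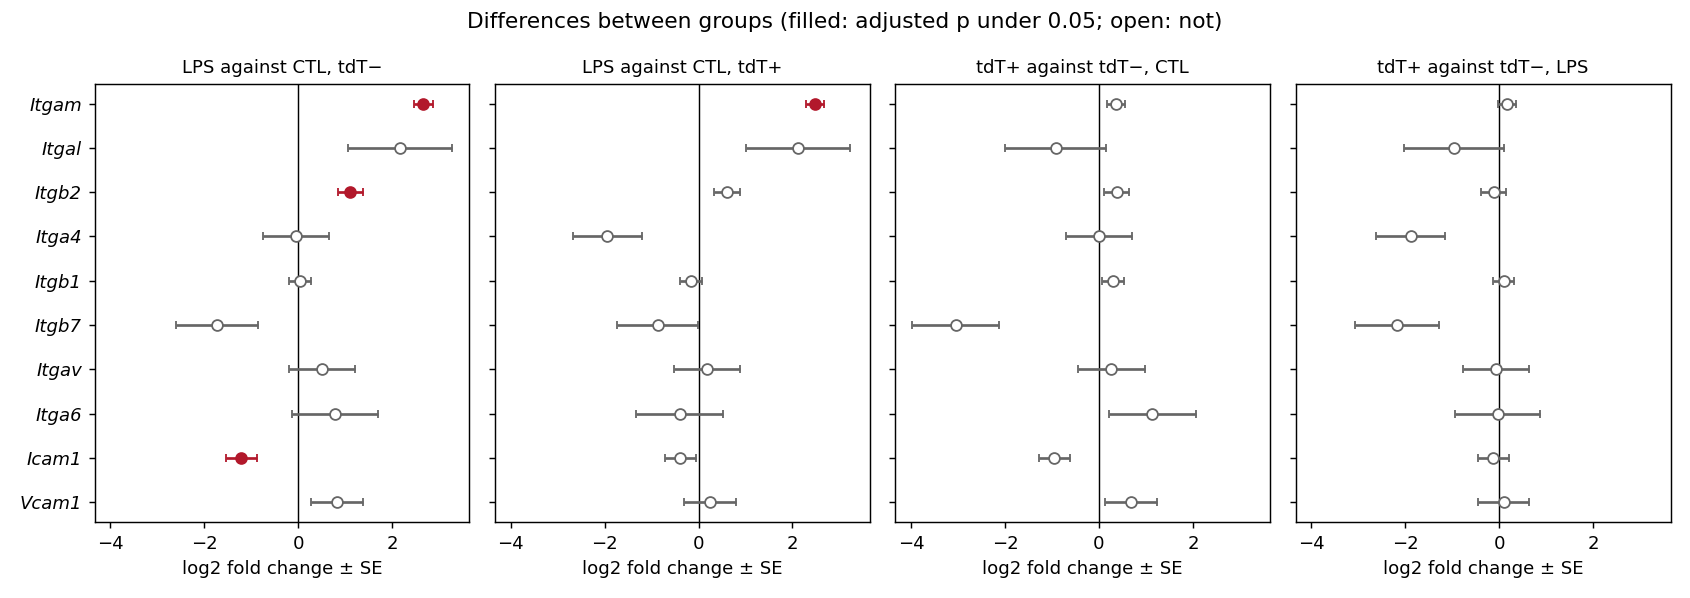
Log2 fold change of each gene with its SE from edgeR in 4 comparisons, each over 5 against 5 libraries; filled points have an adjusted p under 0.05. The filled points are Itgam at 2.67, Itgb2 at 1.11 and Icam1 at -1.21 in tdT- dCAMs and Itgam at 2.48 in tdT+ dCAMs.

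Vcam1, the ligand of Itga4 with Itgb1, was abundant in both populations. Its level in tdT- CTL libraries was 13.5 CPM in mouse 174, 333 in 175, 569 in 177, 308 in 178 and 151 in 179, and 308 to 795 CPM in the 5 tdT- LPS libraries. In tdT+ dCAMs the CTL libraries ranged from 162 to 691 CPM and the LPS libraries from 327 to 614 CPM. Vcam1 overlapped between treatments in each population, with log2 fold changes of 0.83 ± 0.56 (adjusted p = 0.329) and 0.25 ± 0.55 (adjusted p = 0.926). It was the lowest in library 174 of the tdT- CTL group, which had at the same time the highest dendritic cell marker sum of all 20 libraries (3329 CPM) and the lowest fibroblast marker sum (10.9 CPM). An antisense gene model, Gm43109, overlaps Vcam1.

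Itga4, the alpha chain of VLA-4, was at its lowest group mean in tdT+ dCAMs after LPS. In tdT- dCAMs it was 100.4 CPM in mouse 174, 119 in 175, 13.5 in 177, 1.24 in 178 and 30.1 in 179, and 92.0, 47.1, 41.4, 29.2 and 45.8 CPM in LPS mice 54, 56, 59, 60 and 61. In tdT+ dCAMs it was 59.7, 33.2, 24.1, 71.5 and 76.0 CPM in the CTL mice and 12.6, 12.0, 14.0, 18.7 and 11.5 CPM in the LPS mice. Each tdT+ LPS library was thus under each tdT+ CTL library. The log2 fold change in tdT+ dCAMs was -1.94 ± 0.73 and was not called in the fit of all libraries (adjusted p = 0.135). It was called by DESeq2 (adjusted p = 0.0390), by limma-voom with quality weights (0.00835) and in a fit of the 10 tdT+ libraries alone (0.00124), with values between -1.98 and -1.79. In tdT- dCAMs the log2 fold change was -0.05 ± 0.70 (adjusted p = 0.991). The difference between the populations' effects was -1.89 ± 1.0 (adjusted p = 0.452). Itga4 overlaps Cerkl on the opposite strand.

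Itgb7, the alternative partner of Itga4, was at low levels in tdT+ dCAMs. Its tdT+ levels were 30.8 CPM in mouse 174 and 3.82, 6.0, 6.60 and 6.36 CPM in the other CTL mice, and 6.87, 4.87, 6.89, 6.02 and 4.65 CPM in the LPS mice. In tdT- dCAMs it was 264, 14.3, 43.2, 119 and 0.785 CPM in CTL mice 174, 175, 177, 178 and 179, and 44.1, 24.6, 24.4, 19.8 and 20.5 CPM in the LPS mice. The tdT- CTL libraries spanned both extremes of the gene over all 20 libraries. LPS against CTL gave log2 fold changes of -1.73 ± 0.87 in tdT- (adjusted p = 0.187) and -0.87 ± 0.86 in tdT+ dCAMs (adjusted p = 0.693).

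Itgb1, the shared beta chain of VLA-4 and of many matrix receptors, had group means between 421 and 516 CPM. It ranged from 176 to 617 CPM in tdT- CTL, 333 to 514 CPM in tdT- LPS, 394 to 614 CPM in tdT+ CTL and 426 to 519 CPM in tdT+ LPS libraries. Its log2 fold changes after LPS were 0.04 ± 0.23 and -0.16 ± 0.23, and its log2 differences between populations were 0.30 ± 0.23 and 0.09 ± 0.23, none of them called.

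Within the LPS mice the tdT+ and tdT- libraries differed in Itga4 and Itgb7. Both genes were lower in the tdT+ library of each of the 5 mice, by 3.71-fold for Itga4 and 4.55-fold for Itgb7, without overlap between the groups. This was the case for 2 of the 10 members, and for 1.15% of all genes tested, while 0 members and 0.631% of genes were without overlap in the upward direction. In the fit of all 20 libraries neither gene was called (log2 differences -1.89 ± 0.73 and -2.18 ± 0.89, adjusted p = 0.913 for both). That fit called 0 members in either direction and 0% of all genes higher and 0.0301% lower. At an unadjusted p under 0.05, 2 members were lower (Itga4 and Itgb7). DESeq2 called 0, against 0.0975% of all genes higher and 0.273% lower. Limma-voom with quality weights called both genes (adjusted p = 0.0245 and 0.0203), against 0.265% of all genes higher and 0.697% lower. In the 10 LPS libraries alone, Itga4 and Itgb7 were called lower in tdT+ dCAMs with adjusted p = 0.00792 and 0.00227, where 0.0264% of genes were called higher and 0.257% lower. When mouse was added as a replicate block to these 10 libraries, the log2 differences were -1.81 and -2.13 (adjusted p = 0.0170 and 0.00345), against 0.33% of genes called higher and 0.64% lower. The block in the edgeR fit of all 20 libraries called neither, with an adjusted p of 1.0 for both, and 0% of genes higher and 0.018% lower. The fits of the LPS libraries alone leave out the spread of the tdT- CTL group.

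Markers of dendritic cells, which carry both integrin chains, differed between the same libraries. The 6 dendritic cell markers summed to 638 CPM in mouse 54, 343 in 56, 262 in 59, 386 in 60 and 593 in 61 in the tdT- LPS libraries, and to 15.5, 13.0, 46.2, 11.4 and 52.6 CPM in the tdT+ LPS libraries. In CTL mice the sums were 618 to 3329 CPM in tdT- and 51.2 to 77.1 CPM in tdT+ libraries. Ccr7, the receptor of migrating dendritic cells, was at 222 to 599 CPM in tdT- LPS libraries and at 1.49 to 16.4 CPM in tdT+ LPS libraries. This 1 gene thus made up a large part of the tdT- LPS sums of 262 to 638 CPM. Flt3 was at 4.07 to 20.8 CPM in tdT- LPS libraries and at or under 0.209 CPM in tdT+ LPS libraries, and Xcr1 and Clec9a were near 0 in all of them. Mouse 54 had the highest Itga4 level, Itgb7 level and marker sum among the tdT- LPS libraries. Mouse 174 had the highest Itgb7 level and marker sum among the tdT- CTL libraries. Some other libraries did not follow this order. Itga4 was highest in tdT- CTL mouse 175 (119 CPM), which had the lowest marker sum of that group (618 CPM). LPS mouse 61 had a tdT- marker sum of 593 CPM and Itgb7 at 20.5 CPM, in a group range of 19.8 to 44.1 CPM. Mean Itga4 was 52.9 CPM in both CTL groups. The part of dendritic cells in the levels of Itga4 and Itgb7 was not tested. Monocyte markers were also higher in tdT- LPS libraries, at 331 to 844 CPM against 184 to 330.3 CPM.

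**Figure D3:**
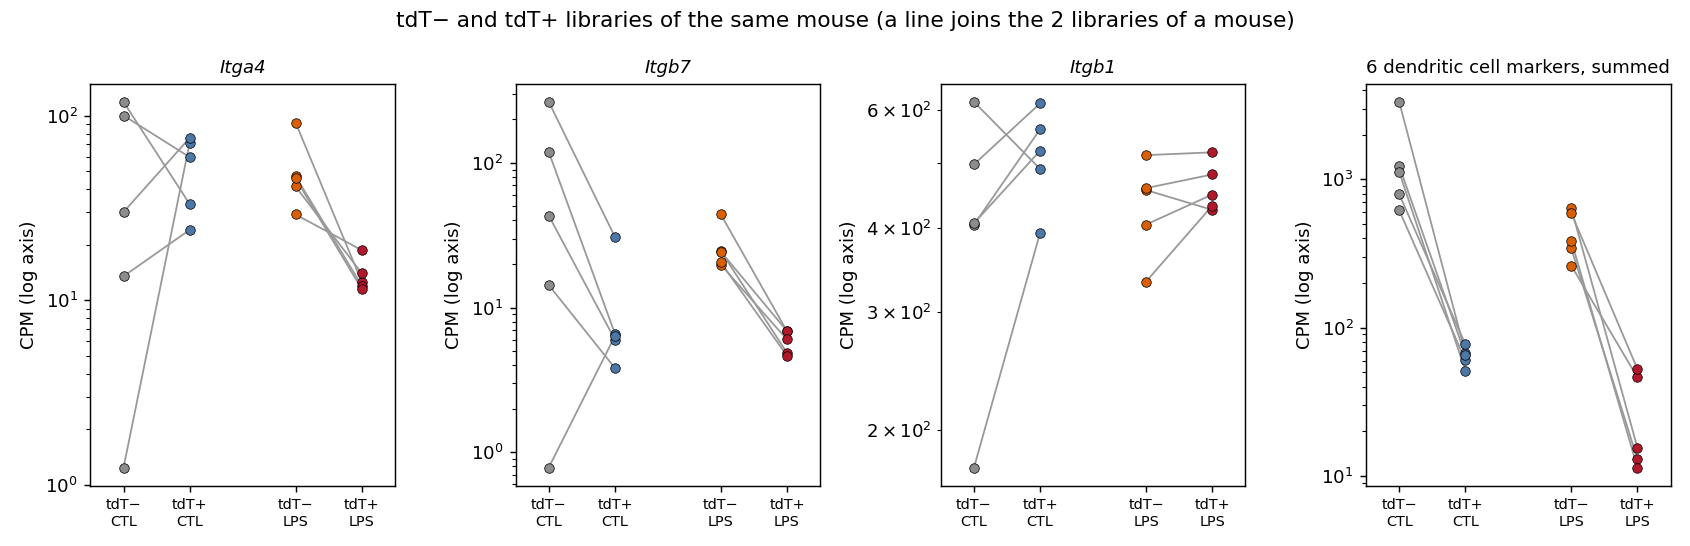
Levels of Itga4, Itgb7 and Itgb1 and the summed level of 6 dendritic cell markers, as CPM on a log axis; each line joins the tdT- and the tdT+ library of a mouse. In the LPS mice all 5 lines of Itga4, of Itgb7 and of the marker sum go down from tdT- to tdT+, while those of Itgb1 stay between 333 and 519 CPM. The marker sum of the tdT- LPS libraries is in large part Ccr7.

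In the CTL mice no member differed between tdT+ and tdT- dCAMs in the edgeR fit, where 3.1% of genes were called higher and 1.58% lower in tdT+. The levels of 0 members were free of overlap, against 2.36% of genes upward and 1.42% downward. The lowest adjusted p was that of Itgb7, which had a log2 difference of -3.05 ± 0.92 (adjusted p = 0.0620) and was lower in tdT+ dCAMs in 4 of 5 mice, mouse 179 being the exception. Icam1 had a log2 difference of -0.95 ± 0.33 (adjusted p = 0.102) and was lower in 4 of 5 mice. These 2 genes were the members with an unadjusted p under 0.05. DESeq2 called 1 member, Itgb7 (adjusted p = 0.00339), against 8.81% of all genes higher and 6.31% lower. Limma-voom with quality weights called 0, against 1.88% and 0.415%, and edgeR with the replicate block called 0, against 2.84% and 0.655%. Itgb7 was also called with the filterByExpr filter (0.0476) and without mouse 179 (0.0194).

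Itgav and Itga6 were called in neither population by edgeR with all mice. Itgav was 141 CPM in tdT- CTL mouse 174 and 1.10, 22.1, 16.3 and 18.2 CPM in the other tdT- CTL libraries, against 48.7 to 68.1 CPM in the 5 tdT- LPS libraries. Its log2 fold change of 0.51 ± 0.71 (adjusted p = 0.676) became 1.95 and was called without mouse 174 (adjusted p = 0.0339). Itga6 was 138 CPM in tdT- CTL mouse 175 and 12.1, 0.123, 25.1 and 0.523 CPM in mice 174, 177, 178 and 179, against 40.4 to 76.3 CPM in the tdT- LPS libraries. Mouse 177 was at 1 count and mouse 179 at 4 counts. Its log2 fold change of 0.79 ± 0.92 (adjusted p = 0.606) became 2.82 without mouse 175 (adjusted p = 0.0364) and 3.45 by limma-voom, with the replicate block (adjusted p = 0.0134) and without it (0.0140), all called. Without mouse 175, Itga6 was also called higher in tdT+ than in tdT- CTL libraries, with a log2 difference of 3.08 (adjusted p = 0.0447) in place of 1.14 ± 0.93 (adjusted p = 0.515). In tdT+ dCAMs both genes overlapped between treatments, with Itgav at 28.2 to 96.9 CPM in CTL and 37.1 to 70.4 CPM in LPS libraries and Itga6 at 43.7 to 102 and 43.9 to 79.8 CPM. Both genes overlap short non-coding gene models and pseudogenes, among them Gm13684 in Itgav and Gm17250 in Itga6, both on the opposite strand.

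The difference between the LPS effects of tdT+ and tdT- dCAMs was tested for each member and called for 0 of 10 in either direction, where 0.0902% of genes were called higher and 1.17% lower. At an unadjusted p under 0.05 there were 0 members, and DESeq2 and limma-voom with quality weights also called 0, against 1.64% of all genes higher and 4.67% lower by the first and 0.0722% and 1.26% by the second. The lowest adjusted p was 0.452, that of Itga4.

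The order of the members is given per length, as CPM per kb of annotated exon (GENCODE M21, GRCm38), since the genes differ in length from 2.77 kb (Itgb7) to 13.98 kb (Itga4). In tdT+ CTL libraries Itgb2 (134 ± 10.8 CPM per kb, SD, n = 5) and Itgb1 (127 ± 20.3) stood above all other members and overlapped each other. Vcam1 (49.5 ± 25.1), Icam1 (45.7 ± 15.6) and Itgam (37.8 ± 5.98) followed and overlapped each with its neighbour, and Itga6, Itgav, Itgb7, Itga4 and Itgal were all at 8.60 or lower on average. In tdT+ LPS libraries Itgam (211 ± 17.5) came first and overlapped Itgb2 (205 ± 10.3), and Itgb1 (113 ± 9.53) lay below both without overlap. The same 3 genes led in tdT- LPS libraries, with Itgb2 at 223 ± 46.5, Itgam at 187 ± 20.4 and Itgb1 at 106 ± 16.7 CPM per kb. Itga4 was last in both LPS groups, at 3.65 ± 1.71 in tdT- and 0.984 ± 0.208 in tdT+ dCAMs. In tdT- CTL libraries the neighbours in the order overlapped everywhere except between Itgam (29.5 ± 9.68) and Itgal (4.46 ± 5.53).

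**Figure D4:**
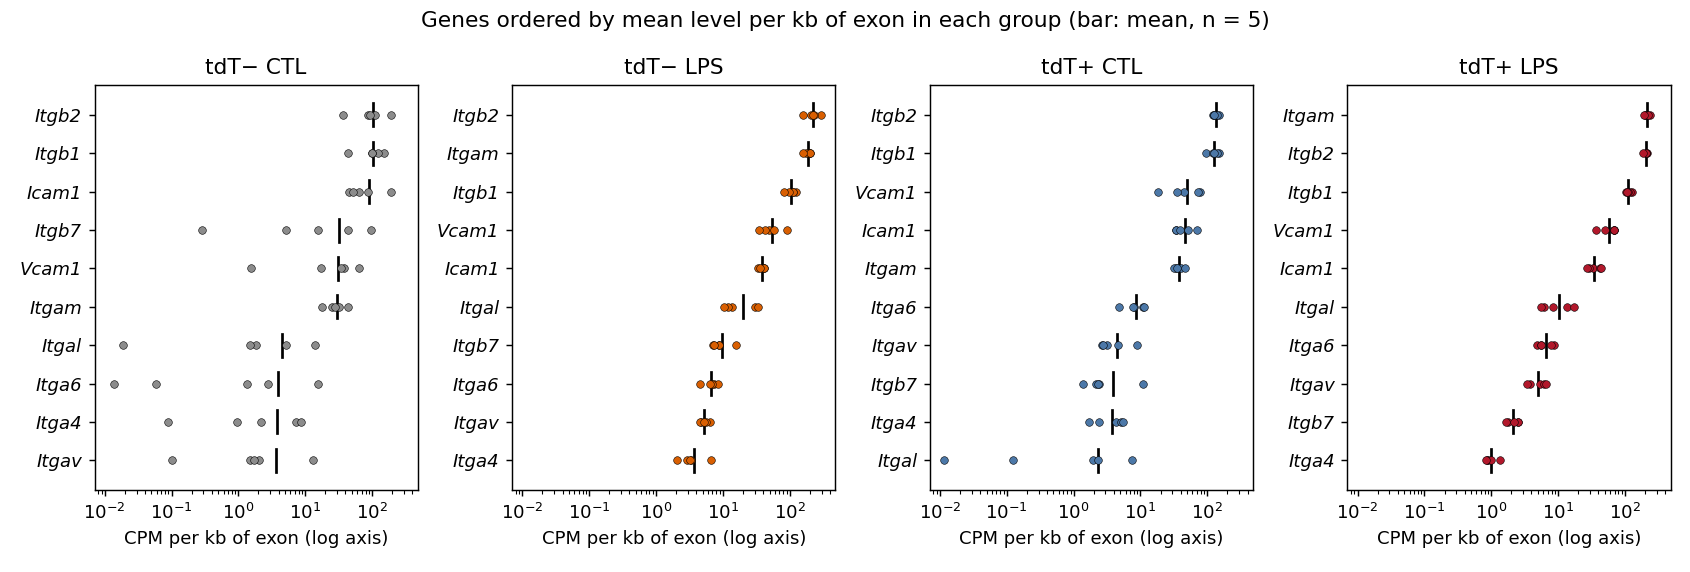
Level of the 10 genes per kb of exon in each group on a log axis, ordered by the group mean; points are libraries and bars are means (n = 5). Itgam moves from 37.8 CPM per kb and rank 5 in tdT+ CTL libraries to 211 CPM per kb and rank 1 in tdT+ LPS libraries.

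Ratios of members within a library do not depend on the scaling between libraries. They were formed per length with 0.5 added to each count, and 4 ratios were compared between treatments in both populations with two-sided exact permutation tests, adjusted over the 8 tests. In tdT+ dCAMs the log2 ratio of Itgb2 to Itgb1 was 0.09 ± 0.15 in CTL and 0.86 ± 0.09 in LPS libraries (SD, n = 5 each), without overlap. The difference of 0.77 had the smallest p that 5 against 5 libraries allow (exact permutation p = 0.00794, adjusted p = 0.0635). In tdT- dCAMs the same ratio ranged from -1.44 to 2.14 in CTL and from 0.90 to 1.20 in LPS libraries (exact permutation p = 0.0873, adjusted p = 0.175). The log2 ratio of Icam1 to Vcam1 was 2.04 ± 2.37 in tdT- CTL and -0.45 ± 0.59 in tdT- LPS libraries (exact permutation p = 0.0397, adjusted p = 0.159). In tdT+ dCAMs it was 0.00 ± 0.57 and -0.73 ± 0.60 (exact permutation p = 0.0794, adjusted p = 0.175). Itgam to Itgal and Itgb7 to Itgb1 gave adjusted p-values of 0.698 to 0.952.

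The same ratios were compared between the populations of a mouse by exact sign-flip permutation over 5 mice, for which 0.0625 is the smallest p, so that 0.05 cannot be reached. In LPS mice the log2 ratio of Itgb7 to Itgb1 was -3.51 ± 0.32 in tdT- and -5.75 ± 0.17 in tdT+ dCAMs and was lower in tdT+ in 5 of 5 mice (exact permutation p = 0.0625, adjusted p = 0.167). The ratio of Itgam to Itgal was higher in tdT+ dCAMs in 5 of 5 LPS mice, at 4.51 ± 0.66 against 3.40 ± 0.66. The ratio of Itgb2 to Itgb1 was lower in 5 of 5, at 0.86 ± 0.09 against 1.06 ± 0.13, with the same p in both cases. In CTL mice none of the 4 ratios pointed the same way in all 5 mice.

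The genes most like the called members over the 20 libraries were found by Pearson's r of log2 CPM in a search of the 5823 genes whose mean log2 CPM reached 4, as a description in which both treatments take part. For Itgam they were Lgals3bp (r = 0.970), Pfkl (0.969) and Ms4a6d (0.957). For Itgb2 they were Rnf169 (0.920), Rbms1 (0.911) and Ptbp1 (0.910). For Icam1 the values were lower, with Snrpb2 (0.832), Appbp2 (0.815) and Ppp1r15a (0.785).

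Other integrin chains gave 17 genes that could be tested of 18. After LPS, 2 were called higher (Itgb8 and Itga5) and 1 lower (Itgb5) in tdT- dCAMs. In tdT+ dCAMs 1 was called higher (Itga5) and 1 lower (Itgb5). The shares of all genes were 7.67% higher and 4.85% lower in tdT- and 3.79% and 2.83% in tdT+ dCAMs. Itga5, the alpha chain of the fibronectin receptor, rose from 29.0 ± 25.8 to 248 ± 62.1 CPM in tdT- dCAMs (log2 fold change 3.09 ± 0.74, adjusted p = 0.00725) and from 31.6 ± 15.2 to 266 ± 61.0 CPM in tdT+ dCAMs (3.07 ± 0.74, adjusted p = 0.0113). Itgb5, a partner of Itgav and the most abundant gene of the list, fell from 358 ± 163 to 134 ± 44.2 CPM in tdT- dCAMs (-1.42 ± 0.35, adjusted p = 0.00841) and from 637 ± 122 to 151 ± 59.9 CPM in tdT+ dCAMs (-2.08 ± 0.35, adjusted p = 0.000419). Itgb8, another partner of Itgav, was at or under 3 counts in each tdT- CTL library and at 9.76 to 21.0 CPM in tdT- LPS libraries. The tdT- LPS mean of 17.0 CPM was 45.2-fold above the mean floor of 3 counts in tdT- CTL libraries. Such bounds, here and below, set a group mean against the mean floor of the other group. Between populations 0 genes of the list were called in either treatment. At an unadjusted p under 0.05, 4 were higher and 7 lower in tdT+ CTL and 0 in either direction in LPS libraries. DESeq2 called 1 higher and 1 lower in CTL mice (8.81% and 6.31% of all genes) and 0 in LPS mice, and limma-voom with quality weights called 0 throughout. For LPS against CTL, limma-voom called 3 higher in each population, with and without the replicate block. The shares of all genes were 22.7% in tdT- and 6.61% in tdT+ dCAMs. Over the 17 genes the median log2 fold change in tdT- dCAMs was -1.26 and that in tdT+ dCAMs -0.37, and they were -1.34 and -0.45 with genes at the floor set to their bound, beside -0.04 and -0.02 over all genes treated alike.

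Among 16 of 18 other adhesion molecules that could be tested, 2 were called higher (Cd47 and Selp) and 2 lower (Cd81 and F11r) after LPS in tdT- dCAMs. In tdT+ dCAMs 5 were called higher (among them Cd47, Selp, Cd44 and Pecam1) and 2 lower (Cd81 and Cd9). These counts stand beside 7.67% of all genes higher and 4.85% lower in tdT- and 3.79% and 2.83% in tdT+ dCAMs. Cd47, an integrin-associated protein, rose from 385 ± 94.5 to 1461 ± 167 CPM in tdT- and from 360.4 ± 47.9 to 1600.2 ± 170.1 CPM in tdT+ dCAMs (log2 fold changes 1.92 ± 0.17 and 2.15 ± 0.17, adjusted p = 1.34e-07 and 2.74e-08). Cd81, a tetraspanin that associates with integrins, fell from 1169 ± 293 to 286 ± 118 CPM and from 1454 ± 112 to 305 ± 86.6 CPM (adjusted p = 1.61e-05 and 4.04e-06). Selp, the P-selectin of platelets and endothelium, was at or under the floor in all CTL libraries and at least 18.6-fold higher in tdT- and 37.1-fold higher in tdT+ LPS libraries. The platelet markers beside it summed to 0 to 24.7 CPM in tdT- CTL and 9.48 to 34.4 CPM in tdT- LPS libraries, and to 0 to 14.0 and 4.30 to 53.9 CPM in tdT+ dCAMs, and their part was not tested. Pecam1, an adhesion molecule of endothelium, platelets and leukocytes, was at 0 in all tdT+ CTL libraries and at least 33.9-fold higher after LPS. In CTL mice Pecam1 was called lower in tdT+ dCAMs, at least 11.9-fold and 4.27-fold without mouse 175. It was not called there by limma-voom with quality weights or in the 10 CTL libraries alone, with or without the block. In LPS mice 0 of these genes were called between populations, with 0 higher and 2 lower at an unadjusted p under 0.05. DESeq2 called 1 lower (0.273% of all genes) and limma-voom with quality weights called 2 lower (0.697%). Limma-voom, with and without the replicate block, called 5 higher in tdT- dCAMs after LPS (22.7% of all genes) and 1 lower in tdT+ dCAMs (4.03%). The 16 genes had a median log2 fold change of 0.82 in tdT- dCAMs (0.23 with the bounds) and -0.59 in tdT+ dCAMs (-0.59).

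Integrin activation and linkage to the cytoskeleton was represented by 31 tested genes of 33, with 5 called higher (among them Zyx, Vcl, Fermt3 and Flna) and 3 lower (Skap2, Rap1a and Tln2) in tdT- dCAMs after LPS. In tdT+ dCAMs 5 were called higher (among them Fgr, Flna, Filip1l and Fermt3) and 1 lower (Tln2). Among all genes the shares were 7.67% higher and 4.85% lower in tdT- and 3.79% and 2.83% in tdT+ dCAMs. Zyx, a focal adhesion protein, rose from 213 ± 58.4 to 425 ± 62.1 CPM in tdT- dCAMs (adjusted p = 0.00411). Fgr, a Src family kinase, rose from 2.66 ± 4.82 to 241 ± 47.9 CPM in tdT+ dCAMs (log2 fold change 6.49 ± 1.29, adjusted p = 0.00218). Its log2 fold change was 8.76 without mouse 175. Flna, which binds beta chain tails, rose in tdT+ dCAMs from 258 ± 23.9 to 659.7 ± 133 CPM (adjusted p = 0.00723). Tln2, a talin, was at 5.52 to 61.2 CPM in tdT+ CTL libraries (mean 30.5 CPM) and at 0 in all tdT+ LPS libraries. By group means it was at least 140.1-fold lower. Rap1b, a small GTPase that activates integrins and the most abundant gene of the list, was at 1123 ± 291 and 1142 ± 61.2 CPM in tdT- and 1098 ± 173 and 1126 ± 85.5 CPM in tdT+ dCAMs (adjusted p = 0.954 and 0.981). In CTL mice 1 was called higher (Vcl, at least 24.6-fold, and 14.3-fold without mouse 179) and 2 lower (Rap1a and Fgr) in tdT+ dCAMs. That comparison called 3.1% of all genes higher and 1.58% lower. Vcl was detected above 3 counts in no tdT- CTL library, and its call and those of Rap1a and Fgr were lost without some single mouse, with adjusted p-values up to 0.0795, 0.0940 and 0.103. In LPS mice 0 were called between populations, also by DESeq2 and limma-voom, with 0 higher and 1 lower at an unadjusted p under 0.05. Limma-voom, with and without the replicate block, called 12 higher after LPS in tdT- dCAMs, where it called 22.7% of all genes higher, and 3 lower in tdT+ dCAMs (4.03% of all genes). The edgeR fit with the block called 0 between populations in CTL mice. Their median log2 fold change was 0.29 in tdT- dCAMs (0.28 with the bounds) and 0.10 in tdT+ dCAMs (0.12).

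The list of extracellular ligands of integrins, which also holds anchors of latent TGF-beta, gave 19 genes that could be tested of 21. Of these, 3 were called higher (Thbs1, Lrrc32 and C3) and 3 lower (Nrros, Mfge8 and Col1a1) in tdT- dCAMs after LPS. In tdT+ dCAMs 1 was called higher (Thbs1) and 2 lower (Nrros and Mfge8). Over all genes 7.67% were called higher and 4.85% lower in tdT- and 3.79% and 2.83% in tdT+ dCAMs. Thbs1, a matrix glycoprotein bound by integrins and CD47, rose from 219.7 ± 375 to 2749 ± 949 CPM in tdT- (adjusted p = 0.00289) and from 54.9 ± 27.7 to 1947 ± 620.1 CPM in tdT+ dCAMs (adjusted p = 0.000243). Without mouse 174, whose level of 889 CPM is the highest of the tdT- CTL group, the tdT- log2 fold change of 3.65 ± 0.77 became 5.70. Limma-voom called it in neither population, with or without the replicate block, and not in tdT- dCAMs with quality weights. C3, whose fragment iC3b is the ligand of Itgam with Itgb2, rose from 25.9 ± 36.9 to 349 ± 95 CPM in tdT- dCAMs (log2 fold change 3.75 ± 0.97, adjusted p = 0.0134), with a log2 fold change of 4.86 without mouse 179. Nrros and Lrrc32 anchor latent TGF-beta, which integrins of the alpha-v family activate. Nrros fell from 807 ± 131 to 261 ± 38.3 CPM in tdT- (adjusted p = 1.27e-06) and from 911 ± 87.0 to 259 ± 52.7 CPM in tdT+ dCAMs (adjusted p = 2.79e-07), while Lrrc32 was at or under the floor in tdT- CTL libraries and at least 21.0-fold higher after LPS. Mfge8, a bridge between apoptotic cells and Itgav, fell from 71.6 ± 23.9 to 9.89 ± 2.43 CPM and from 35.9 ± 11.9 to 7.99 ± 2.15 CPM (adjusted p = 0.000153 and 0.00238). Col1a1 fell in tdT- dCAMs (adjusted p = 0.0305), a call that rests on the library of mouse 179 (920.2 CPM) among others and was lost without mouse 179, 56, 59 or 60. Limma-voom, with and without the block, called 8 genes of the list higher in tdT- dCAMs, where it called 22.7% of all genes higher. For the tdT+ population it called 3 higher (6.61% of all genes). The 19 genes had a median log2 fold change of 1.10 in tdT- dCAMs (1.10 with the bounds) and 0.40 in tdT+ dCAMs (0.77). Between populations 0 genes of the list were called in either treatment by edgeR or by limma-voom with quality weights. At an unadjusted p under 0.05, 3 were higher and 4 lower in CTL mice and 1 lower in LPS mice. DESeq2 called 2 higher and 3 lower in CTL mice (8.81% and 6.31% of all genes) and 0 in LPS mice.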

How the data were processed

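Libraries of tdT+ and tdT- dCAMs were prepared by the authors with a low-input full-length kit, aligned with STAR 2.7.11a and assigned to genes with featureCounts 2.0.6. The deposited table holds these raw counts, whole numbers with no scaling. The methods name more than one build, so coordinates and exon lengths are from GRCm38 with GENCODE M21 and serve to locate genes and to give levels per length.

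Counts of the 20 libraries were fitted jointly with edgeR 4.0.16 (R 4.3.3) after TMM scaling, with 1 mean per group and genes with a total under 10 removed. The common biological coefficient of variation was 1.13. Fold changes are from edgeR, with the SE derived from its F statistic. Libraries are paired by animal: the tdT+ and tdT- cells of a mouse came from its own dura. Deviations of paired libraries from their group means correlated at r = -0.0046 to 0.0461 in CTL and 0.228 to 0.449 in LPS mice. Alternatives used DESeq2 1.42.0, limma 3.58.1, RLE scaling, 2 other filters, the F or M prefix of the titles as a term, each mouse left out, the libraries of a comparison alone, and mouse as a replicate block (limma-voom between treatments, edgeR between populations). The block within the 10 libraries of a comparison alone and limma-voom without quality weights or block were chosen after seeing the data. Scripts were tested on simulated data.

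Genes were named by rule: the 10 members, from each pathway list up to 3 called genes per direction with the smallest p and the most abundant gene, the 3 genes most like each called member, and the genes behind any count of 5 or fewer. The members and lists were chosen with earlier results of these data known. No pair of libraries was a duplicate. Intervals of counts are not given, floors of 3 counts cover counting error only, and nothing in the labels separates litters or processing days. P-values therefore measure the spread between libraries of these mice. In the fit of all 20 libraries that spread is pooled over the 4 groups and there is no term for mouse. The tdT+ and tdT- libraries of a mouse enter that fit as independent. Promoters are from RefSeq, GRCm38.p6, and 6 of the 10 members had an entry (Itgal, Itgb2, Itga6 and Vcam1 had none). Results of 2 genes of the pathway lists are not reported here.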

Additional observations from a re-analysis of the deposited data

Results flagged for a closer look

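In 6 of 40 groups of 5 libraries, a member had a library far from the others, by a gap of over 0.71 of the range of the group. About 1 in 20 groups of independent, normally distributed values passes that cut. Whether these CPM are normal was not tested, and the members share libraries, so that the 6 cannot be set against that rate. In the tdT- CTL group the values far from the others were Itgav in mouse 174 (141 CPM), Itga6 in mouse 175 (138 CPM) and Icam1 in mouse 179 (848 CPM). In the tdT+ CTL group it was Itgb7 in mouse 174 (30.8 CPM). In the tdT- LPS group mouse 54 stood above the others in Itga4 (92.0 CPM) and in Itgb7 (44.1 CPM). Mouse 54 also had the highest dendritic cell marker sum of its group, 638 CPM, and mouse 179 the highest fibroblast marker sum of all libraries, 4682 CPM. Their part in these levels was not tested. No member had opposite LPS effects without overlap in tdT+ and tdT- dCAMs, or a called difference between the effects.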

How the results depend on the processing

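Itgam stayed called in both populations under every refit and without any mouse. Among the members called after LPS in tdT- dCAMs, the upward count of 2 became 1 in the 10 libraries alone (Itgam) and 4 by limma-voom without quality weights, with the replicate block and without it (also Itgal and Itga6), so that the block is not what added these 2. The downward count of 1 became 0 by limma-voom with quality weights and in the 10 libraries alone, and stayed at 1 by limma-voom without quality weights. It ranged from 0 to 1 with a mouse left out. In tdT+ dCAMs the upward count of 1 became 3 by limma-voom with quality weights (also Itgal and Itgb2) and 2 in the 10 libraries alone (also Itgb2). The downward count of 0 became 1 with DESeq2, by limma-voom with quality weights and in the 10 libraries alone. Limma-voom without quality weights left both counts unchanged. Between populations in CTL mice, the upward count of 0 ranged from 0 to 1 with a mouse left out, and the downward count of 0 became 1 with DESeq2 and filterByExpr and ranged from 0 to 1. In LPS mice the downward count of 0 became 2 by limma-voom with quality weights, in the 10 libraries alone, and there with the replicate block. The block in the fit of all libraries changed no other member call. In the main fit of all 20 libraries, requiring also an absolute log2 fold change over 1 changed no count. This does not hold for every refit. Itgb2 in tdT+ dCAMs was called in the 10 libraries alone and by limma-voom with quality weights. Its log2 fold change was 0.55 to 0.65 over these kinds of refit, under that cut. Levels of 3 counts or fewer, such as the 1 count of Itgal in 2 CTL libraries, carry a large counting error. The fits of 10 libraries use the spread of those libraries alone, and the causes of the other changes were not tested.

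No member value that was called in either fit changed its sign, out of 930 refitted values. There were 32 uncalled values with another sign, at most 1.15 in size. The 8 ratio tests between treatments stayed above an adjusted p of 0.05 with a pseudocount of 2 and with each mouse left out. A single ratio at the smallest exact permutation p of 0.00794 has an adjusted p of 0.0635 over 8 tests. One ratio alone thus could not reach 0.05, and these refits say little about stability. The ratio tests between populations cannot reach 0.05 with 5 pairs, so that their refits say nothing about stability. Without the replicate block their lowest adjusted p was 0.0635. Over all genes, the calls numbered 2081 (929 to 4839 over the refits) in tdT- and 1100 (950 to 3860) in tdT+ dCAMs after LPS, 778 (3 to 1968) between populations in CTL mice, 5 (3 to 160) in LPS mice and 210 (84 to 776) for the difference of effects. Of 45 calls in the 4 lists, 32 were kept without any mouse and 13 were lost without some mouse, and none changed sign in any refit.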
